A study of Arabidopsis thaliana with 6 samples.

Results

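The subject here is a set of 9 Arabidopsis thaliana genes whose transcripts are used as markers of darkness and sugar starvation: DIN1 (SEN1), DIN2 (BGLU30), DIN6 (ASN1), DIN10, DRM1, DRM2, bZIP1, AKINBETA1 and BGAL4. They were chosen by gene identifier, with earlier results of these data known. All 9 were found among the 32833 genes of the count table. RNA was sequenced from whole seedlings of the gi-2 mutant (3 libraries) and of wild-type Col-0 (3 libraries), each library a pool of 40 to 60 seedlings that had grown for 7 d on 0.5x MS plates at 22 °C, with 8 h of light of 80 µmol m-2 s-1 and 16 h of darkness a day. All pools were frozen at ZT0, the moment of lights-on, so both genotypes had just passed the long night. gi-2 is a mutant allele of GIGANTEA (GI), a clock-controlled gene of circadian timing and photoperiodic flowering, and it is the 1 mutant allele compared here, with no rescued line among the groups; the labels do not describe its lesion. The comparison asks how transcript levels in gi-2 differ at dawn from those in Col-0. ZT0 was the only time sampled, so a shift in daily timing and a change in level over the day cannot be told apart.

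Plants store part of the sugar they fix by day as starch and live on it through the night. When sugar runs short, the kinase complex SnRK1, the plant relative of yeast SNF1 and animal AMPK, turns on genes of catabolism and of nitrogen storage and turns off costly biosynthesis, in part through bZIP transcription factors of the C and S1 groups. The DIN genes were named for their induction in darkened leaves, and DIN6 is among the most used reporters of SnRK1 activity in leaf cells. Sugar supplied to the plant represses them. The counts used here measure transcripts alone, so sugar, starch and SnRK1 activity in these seedlings were not tested.

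Library totals ran from 18739317 to 23617717 counts. GI itself had 183, 210 and 139 counts in the gi-2 libraries and 68, 59 and 53 counts in the Col-0 libraries, which shows a difference in transcript and not whether protein is made. Among markers of other tissues, 9 seed storage genes summed to 21.9, 359 and 61.1 CPM (counts after TMM scaling to a common library size) in gi-2 replicates 1, 2 and 3 and to 1.16 to 10.6 CPM in Col-0. Summed over 6 root genes, the level was 2262 to 2421 CPM in gi-2 and 3503 to 3933 CPM in Col-0. Over 6 genes of green tissue it was 67279 to 75096 CPM in gi-2 and 67392 to 71834 CPM in Col-0, and these sums overlapped. Single genes carry the root and green sums: PYK10 averaged 2249 CPM in the mutant, against 3705 CPM in the wild type, and LHCB1.3 averaged 52161 CPM in the mutant, against 41118 CPM in the wild type. The green genes RCA (2848 CPM in the mutant, against 6952 CPM in the wild type), RBCS1A (8892 CPM in the mutant, against 13053 CPM in the wild type) and ATPC1 (573 CPM in the mutant, against 862 CPM in the wild type) were lower without overlap. Calls of the seed genes are not counted here, since CRU3 and OLEO1 passed the filter on counts only through the gi-2 libraries. CRU3 had 50, 1955 and 234 counts in gi-2 and 0, 0 and 5 in Col-0. CRA1 was the largest part of the seed sums (107 CPM in the mutant, against 4.70 CPM in the wild type), and OLEO2 overlapped between genotypes. The root and green lists each had 1 gene called higher, 3 lower and 2 not called (edgeR). Of all genes tested, 16.3% were called higher and 16.2% lower. All root and green genes had counts in each library, while 0 to 3 of the 9 seed genes were at 0 in the gi-2 libraries and 5 to 7 in the Col-0 libraries. In RNA from whole seedlings, fewer cells of a type and less RNA per cell cannot be told apart. The part of tissue make-up in the values that follow was not tested. All 9 starvation markers were also called higher with gi-2 replicate 2 left out, where the seed and root sums of the remaining gi-2 libraries still lay outside the Col-0 range.

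All 9 starvation markers were higher in gi-2, and for all 9 the lowest gi-2 library stood above the highest Col-0 library. Of the 19699 genes tested, 16.3% were called higher in gi-2 (edgeR, adjusted p under 0.05) and 32.6% were called in either direction. All gi-2 libraries lay above all Col-0 libraries for 22.9% of genes, and the genotypes did not overlap, in either direction, for 45.3%. An increase of at least 1 on the log2 scale was called for 8 of the 9 markers and for 3.13% of genes tested. The median log2 fold change was 1.82 over the 9 markers and 0.00 over all genes tested. Since the 9 were chosen with earlier results of these data known, these shares and medians are a description. Together the 9 genes took 0.570%, 0.479% and 0.486% of all counts in gi-2 replicates 1, 2 and 3, against 0.112%, 0.126% and 0.146% in Col-0 replicates 1, 2 and 3. The mean share was 0.512 ± 0.0508% in gi-2 and 0.128 ± 0.0168% in Col-0 (SD, n = 3 each), with no overlap between genotypes.

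**Figure D1:**
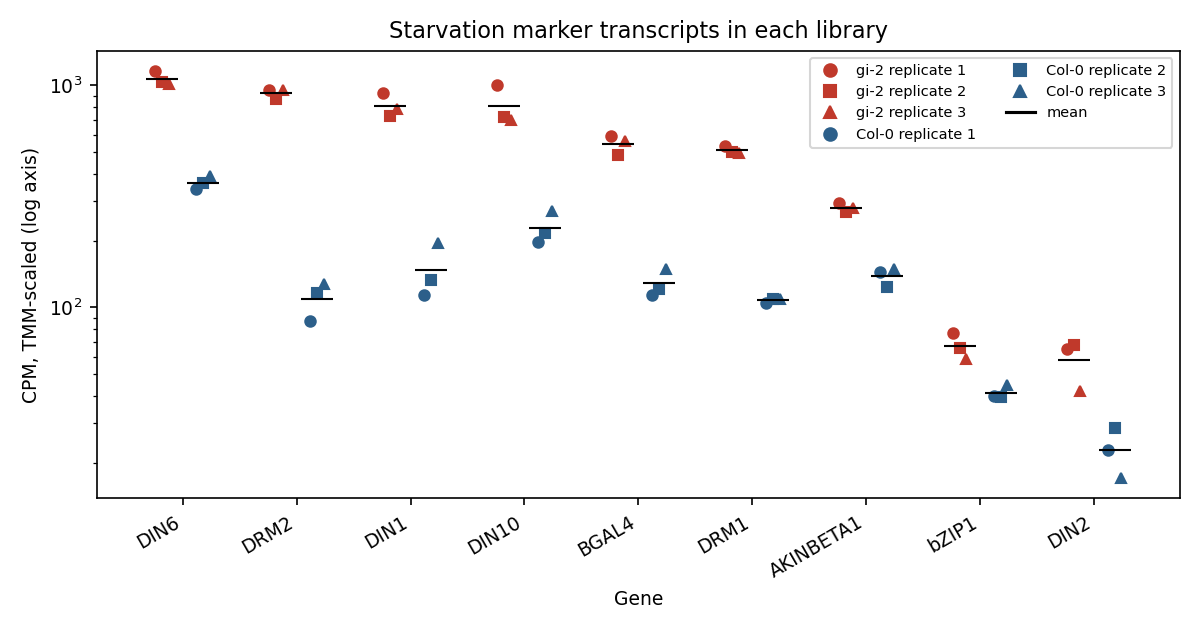
TMM-scaled level in CPM (log axis) of the 9 starvation marker genes in each of the 3 gi-2 libraries (red) and 3 Col-0 libraries (blue), with the mean of each genotype as a black line. In each gene the gi-2 libraries lie above the Col-0 libraries, with the widest gap in DRM2 and the narrowest in bZIP1.

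**Figure D2:**
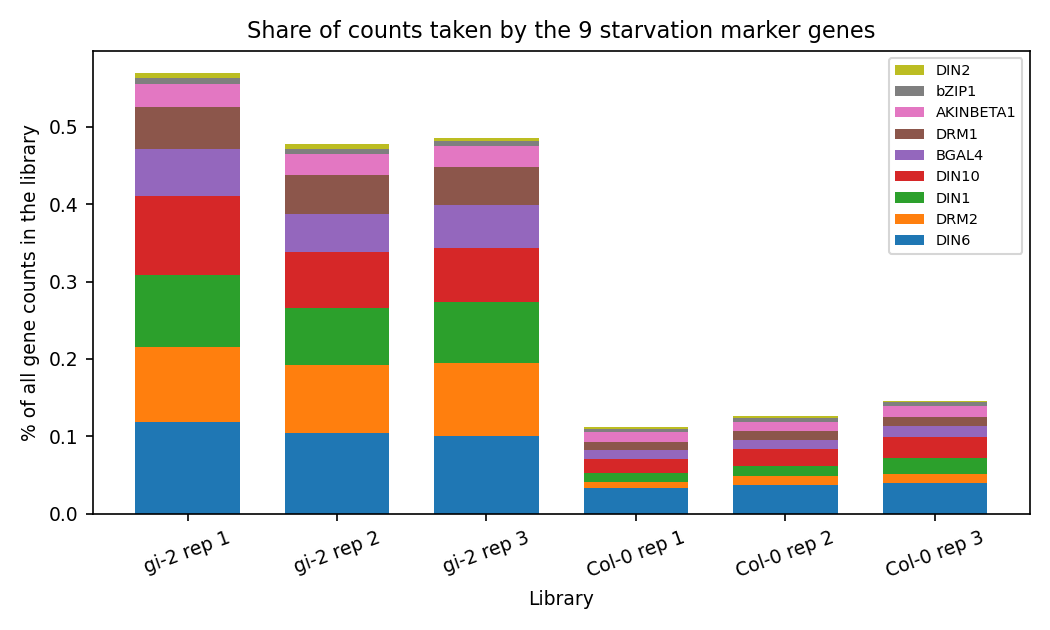
Percentage of all gene counts in each library taken by the 9 starvation marker genes, stacked by gene. The gi-2 bars reach 0.479% to 0.570% and the Col-0 bars 0.112% to 0.146%.

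Since the genes were higher together, the 250 bases before each annotated start were searched on both strands for letters of sites linked to sugar, bZIP factors or the clock. The core of the sugar-repressive element, TTATCC, was in the windows of 5 of the 9 genes (DIN1, DIN6, DRM2, bZIP1 and AKINBETA1) and in 12.5% of 27413 such windows of protein-coding genes. The G-box CACGTG was in that of DIN6 alone (6.48% of all windows), and ACGT, the core of bZIP sites that the G-box contains, in those of DIN6 and DIN10 (44.1% of all windows). ACTCAT, a site of S1 bZIP factors in the proline dehydrogenase promoter, was in that of DRM1 alone (12.3%), and the evening element AAAATATCT was in none (2.36%). The log2 fold changes of the 5 genes with TTATCC ran from 0.70 to 3.08 and those of the 4 without it from 1.35 to 2.24. The motifs were searched as plain letters, so a match is a description and not a site.

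The last 170 bases before the start are printed for DIN1, DRM2, bZIP1 and AKINBETA1, and they hold every TTATCC match found for those genes. DIN6, whose match begins 80 bases before the start, is not printed because another annotated gene, AT3G47341, overlaps its window. Capitals mark TTATCC, or GGATAA where it lies on the opposite strand. All are read 5′ to 3′ on the gene's strand from the RefSeq TAIR10.1 genome: DIN1 at chr4:16944708-16944877 (plus strand), DRM2 at chr2:14310609-14310778 (minus strand), bZIP1 at chr5:20051659-20051828 (plus strand) and AKINBETA1 at chr5:7205307-7205476 (plus strand). In DIN1 the matches begin 95 and 74 bases before the start, in DRM2 127, in bZIP1 83 and in AKINBETA1 112 and 31 bases before it. An annotated non-coding RNA, AT5G00430, overlaps the AKINBETA1 window.
DIN1: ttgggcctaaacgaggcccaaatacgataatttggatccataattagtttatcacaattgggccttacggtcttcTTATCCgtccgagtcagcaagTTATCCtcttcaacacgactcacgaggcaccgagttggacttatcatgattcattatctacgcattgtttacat
DRM2: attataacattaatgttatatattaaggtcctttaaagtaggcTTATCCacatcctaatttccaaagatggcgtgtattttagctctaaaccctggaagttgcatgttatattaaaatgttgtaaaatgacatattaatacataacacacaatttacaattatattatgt
bZIP1: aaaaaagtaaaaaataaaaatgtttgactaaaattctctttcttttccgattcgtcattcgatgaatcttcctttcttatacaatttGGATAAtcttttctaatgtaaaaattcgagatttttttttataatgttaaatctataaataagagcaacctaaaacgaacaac
AKINBETA1: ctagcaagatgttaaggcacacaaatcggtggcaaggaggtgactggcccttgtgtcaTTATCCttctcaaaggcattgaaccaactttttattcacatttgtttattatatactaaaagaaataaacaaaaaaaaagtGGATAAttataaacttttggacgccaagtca

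Within the 9 genes, counts per library ran from 337 in DIN2 to 25565 in DIN6. None of the 858 to 2979 exon windows of 50 bases per gene was found elsewhere in the nuclear genome. The libraries carry no strand, and annotated genes on the opposite strand overlap DIN6 (AT3G47341), DIN10 (AT5G20260) and BGAL4 (AT5G56880). Those neighbours held 0 to 3 counts per library, while reads in a shared stretch cannot be told apart by strand. The shared stretch is 11 bases in DIN6, 82 in DIN10 and 909 in BGAL4, and its effect on the level of BGAL4 was not tested.

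The largest log2 fold change of the 9 was that of DRM2, which with DRM1 belongs to the dormancy-associated genes, named for dormant or growth-arrested buds; the molecular role of these small proteins is not settled. DRM2 (AT2G33830, chromosome 2, 14308754 to 14310608, minus strand; named DRMH1 in the deposited table) stood at 954, 870.4 and 953 CPM in the gi-2 libraries and at 86.4, 116 and 127 CPM in the Col-0 libraries. All gi-2 libraries were close together and far above Col-0, where replicate 1 was lowest. The means were 926 ± 48.2 CPM in the mutant, against 109.6 ± 20.9 CPM in the wild type. The level was 8.44-fold higher (log2 fold change 3.08, SE 0.12), with an edgeR adjusted p of 4.87e-10. Of the genes tested, 0.198% had a larger log2 fold change.

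DRM1 (AT1G28330, chromosome 1, 9933786 to 9935440, minus strand) stood at 532, 500.2 and 496 CPM in the gi-2 libraries and at 104, 109 and 109 CPM in the Col-0 libraries. It was the least variable of the 9 genes, with a coefficient of variation of 3.86% in gi-2 and 2.71% in Col-0. The level was 4.74-fold higher (log2 fold change 2.24, SE 0.07), with an edgeR adjusted p of 2.97e-10. Per kb of exon, the level of DRM2 was 2.51, 2.43 and 2.69 times that of DRM1 in the gi-2 libraries and 1.16, 1.48 and 1.62 times in the Col-0 libraries. The ratio was therefore higher in each gi-2 library than in any Col-0 library, in a comparison described here without a test. Another gene of the family, AT1G56220, stood at 704 ± 13.7 CPM in the mutant, against 304 ± 12.8 CPM in the wild type (log2 fold change 1.21, SE 0.07), and AT1G54070 had no count in any library.

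DIN1, also called SEN1 (AT4G35770, chromosome 4, 16944878 to 16946266, plus strand; STR15 in the deposited table), is a sulfurtransferase-like gene long used as a marker of darkened and senescing leaves. Its level was 922, 725 and 782 CPM in the gi-2 libraries and 113, 133 and 196 CPM in the Col-0 libraries. Col-0 replicate 3 was the highest of its genotype, yet the lowest gi-2 library was still 3.70 times that value. The level was 5.49-fold higher (log2 fold change 2.46, SE 0.16), with an edgeR adjusted p of 5.96e-08. Of 5 other genes of single-domain sulfurtransferases that were tested, STR18 and STR16 rose by 0.62 and 0.32 on the log2 scale, AT4G27700 and AT2G42220 fell by 1.09 and 0.50, and AT2G21045 did not pass (-0.06, SE 0.11). AT2G17850 was not tested for lack of counts.

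DIN6 is ASN1 (AT3G47340, chromosome 3, 17437840 to 17441431, minus strand), the glutamine-dependent asparagine synthetase that stores nitrogen in an amide with little carbon per nitrogen. It stood at 1159, 1031 and 1009.6 CPM in the gi-2 libraries and at 340.0, 363 and 390.1 CPM in the Col-0 libraries. Both genotypes were tight, and they were well apart. The level was 2.93-fold higher (log2 fold change 1.55, SE 0.08), with an edgeR adjusted p of 1.18e-08. Its relatives ASN2 and ASN3, which make the same amide and are not known as dark-induced, moved the other way. ASN2 stood at 193 ± 15.6 CPM in the mutant, against 310 ± 16.4 CPM in the wild type (log2 fold change -0.68, SE 0.08), and ASN3 fell by 0.53 (SE 0.12).

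DIN10 (AT5G20250, chromosome 5, 6833564 to 6836862, plus strand) belongs to the raffinose synthase family, enzymes of galactose-bearing oligosaccharides. It stood at 1005, 719.7 and 699.7 CPM in the gi-2 libraries and at 198, 217 and 270.4 CPM in the Col-0 libraries. Replicate 1 lay above the other gi-2 libraries, and the coefficient of variation in gi-2 was 21.1%. The level was 3.54-fold higher (log2 fold change 1.82, SE 0.14), with an edgeR adjusted p of 2.64e-07. Of 3 relatives described here, RS2 rose by 1.54 (SE 0.16), RS5 fell by 0.50 (SE 0.10), and RS4 (0.27, SE 0.68) did not pass. RS4 was at 0.760 CPM in the mutant, against 0.620 CPM in the wild type, too few counts to place it.

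BGAL4 and DIN2 encode glycosidases, enzymes that release sugars from cell wall polymers or glycosides. BGAL4 (AT5G56870, chromosome 5, 23003909 to 23009672, plus strand), a beta-galactosidase, stood at 594, 485 and 560.2 CPM in the gi-2 libraries and at 114, 121 and 149 CPM in the Col-0 libraries. The gap between genotypes was far wider than the spread within either. The level was 4.26-fold higher (log2 fold change 2.09, SE 0.11), with an edgeR adjusted p of 6.71e-09. Among 10 other beta-galactosidase genes tested, 7 were higher and 2 lower, beside 16.3% and 16.2% of all genes tested. BGAL10 and BGAL1 rose by 1.79 (SE 0.13) and 0.98 (SE 0.08), BGAL3 and BGAL8 fell by 0.72 and 0.49, and BGAL9 did not pass (-0.07, SE 0.08). The call of BGAL12 (0.36, SE 0.12; edgeR adjusted p of 0.0357) was lost in 7 of the 14 alternatives, among them those that left out gi-2 replicate 2 (0.180), gi-2 replicate 3 (0.101), Col-0 replicate 2 (0.141) or Col-0 replicate 3 (0.0504). BGAL8, BGAL9 and BGAL12 were named after their values were seen.

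DIN2, or BGLU30 (AT3G60140, chromosome 3, 22216540 to 22220824, plus strand), a beta-glucosidase, stood at 64.7, 67.6 and 42.2 CPM in the gi-2 libraries and at 22.9, 28.6 and 17.0 CPM in the Col-0 libraries. It was the most variable of the 9 in gi-2, with replicate 3 below the others in both genotypes. The genotypes still did not overlap, and the level was 2.55-fold higher (log2 fold change 1.35, SE 0.18), with an edgeR adjusted p of 5.49e-05. Of 8 relatives, 4 were tested: PEN2, a beta-glucosidase of defence, rose by 0.39 (SE 0.09), and BGLU17 (0.45, SE 0.27), BGLU33 (0.08, SE 0.14) and BGLU15 (-0.03, SE 0.17) did not pass. BGLU28, BGLU29, BGLU31 and BGLU32 had too few counts to be tested.

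The markers that are themselves regulators had the smallest log2 fold changes of the 9. AKINBETA1 (AT5G21170, chromosome 5, 7205477 to 7208613, plus strand), a beta subunit that holds the SnRK1 complex together, stood at 296, 268 and 279.8 CPM in the gi-2 libraries and at 145, 124 and 149 CPM in the Col-0 libraries. The lowest gi-2 library was 1.80 times the highest Col-0 library. The level was 2.02-fold higher (log2 fold change 1.02, SE 0.08), with an edgeR adjusted p of 6.05e-07. bZIP1 (AT5G49450, chromosome 5, 20051829 to 20052735, plus strand), an S1 group transcription factor that acts on DIN6 in starved cells, stood at 76.9, 65.4 and 58.5 CPM in the gi-2 libraries and at 39.8, 39.5 and 44.7 CPM in the Col-0 libraries. Here the lowest gi-2 library was 1.31 times the highest Col-0 library. The level was 1.62-fold higher (log2 fold change 0.70, SE 0.10), with an edgeR adjusted p of 0.000118, and 7.76% of genes tested had a larger log2 fold change.

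Of the other subunits and partners of these regulators, 4 of 14 were called in either direction, beside 32.6% of all genes tested. Of 6 further SnRK1 subunit genes, 2 were higher and none lower, where 16.3% of all genes tested were called higher and 16.2% lower. KING1, annotated as a gamma subunit gene, stood at 367 ± 13.6 CPM in the mutant, against 174 ± 18.4 CPM in the wild type (log2 fold change 1.07, SE 0.08). KIN10, a catalytic subunit, rose by 0.28 on the log2 scale (SE 0.09), with an edgeR adjusted p of 0.0237. Leaving out a single library ended the KIN10 call for gi-2 replicate 2 (edgeR adjusted p of 0.0667), for gi-2 replicate 3 (0.126) and for Col-0 replicate 1 (0.0502), and the alternatives together spanned 0.0217 to 0.126. KIN11, the other catalytic subunit (0.15, SE 0.09), SNF4, an adaptor subunit (0.11, SE 0.08), and the beta subunits KINbeta3 (0.16, SE 0.16) and KINbeta2 (-0.02, SE 0.10) did not pass.

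Of 8 further bZIP genes of the C and S1 groups, none was higher and 2 were lower, a share called that is near the 32.6% of all genes tested. bZIP63, a C group partner of bZIP1, stood at 39.0 ± 0.373 CPM in the mutant, against 51.9 ± 4.28 CPM in the wild type (log2 fold change -0.41, SE 0.09). bZIP11, an S1 gene whose translation is repressed by sucrose, fell by 0.58 on the log2 scale (SE 0.19), with an edgeR adjusted p of 0.0293. Its call ended when gi-2 replicate 1 (edgeR adjusted p of 0.120), gi-2 replicate 2 (0.0704) or Col-0 replicate 1 (0.0880) was left out, and the alternatives spanned 0.0200 to 0.128. The remaining genes, bZIP2, bZIP9, bZIP25, bZIP44, bZIP53 and BZO2H1, lay between -0.12 and 0.26 and did not pass.

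**Figure D3:**
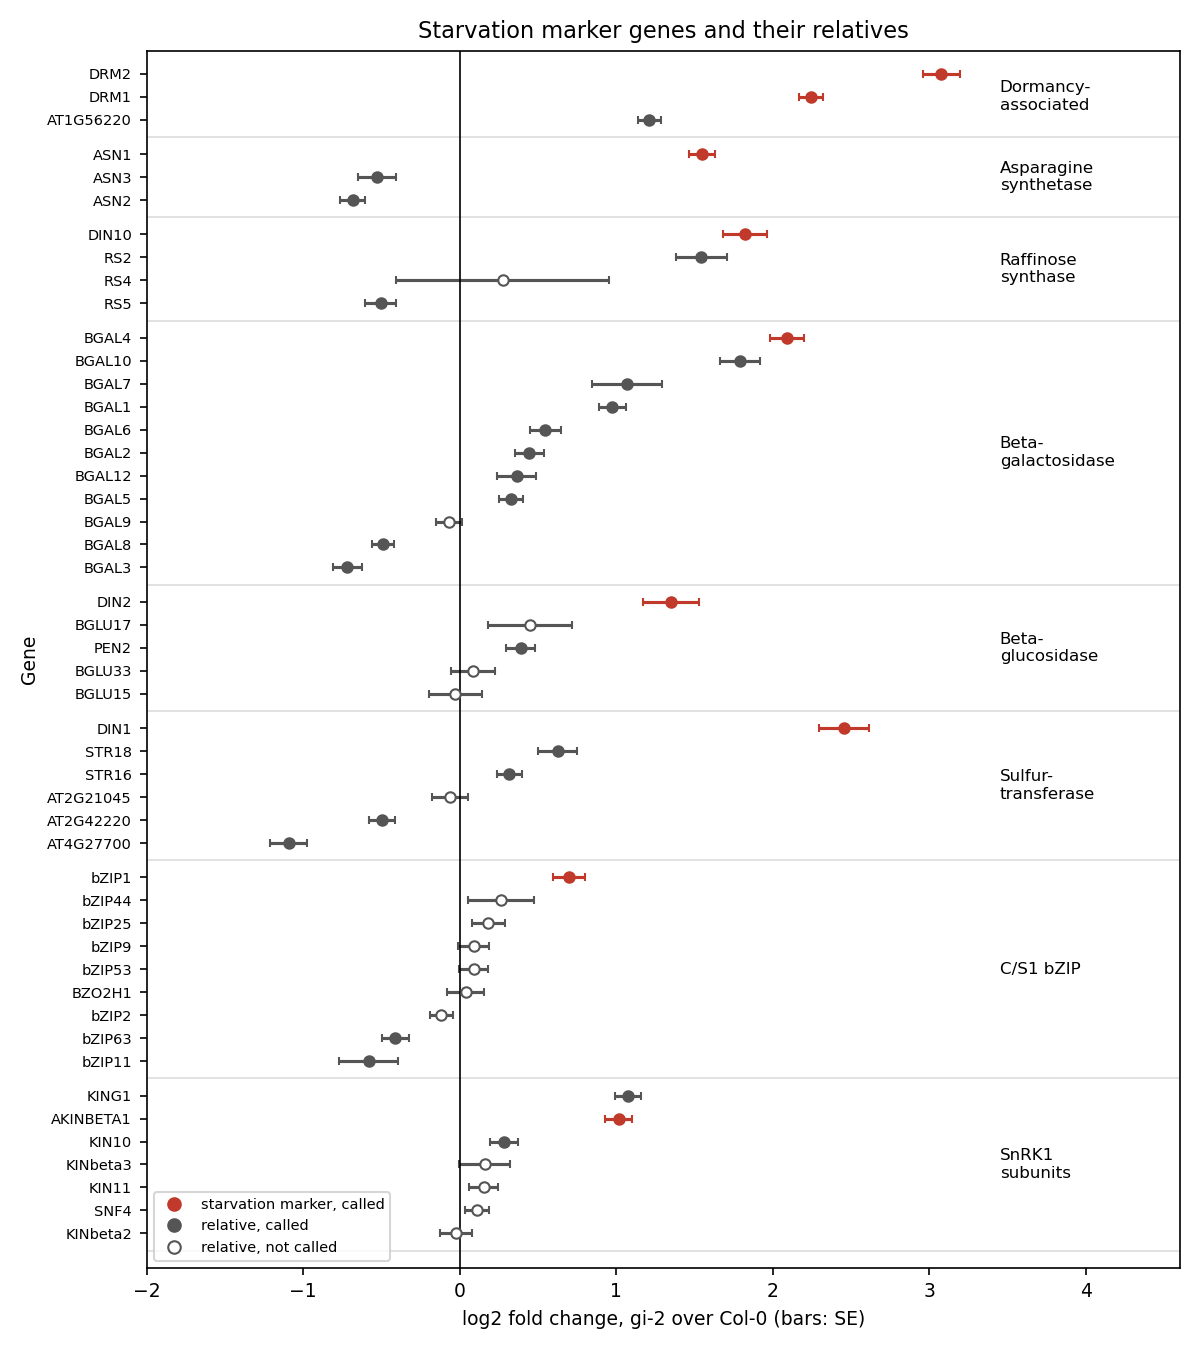
log2 fold change of gi-2 over Col-0 with its standard error for the 9 starvation marker genes (red; DIN6 is shown as ASN1) and tested genes of their families (grey; filled where called, open where not). In 7 of the 8 families a marker has the highest value, and among SnRK1 subunits KING1 and AKINBETA1 stand together at 1.07 and 1.02.

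**Figure D4:**
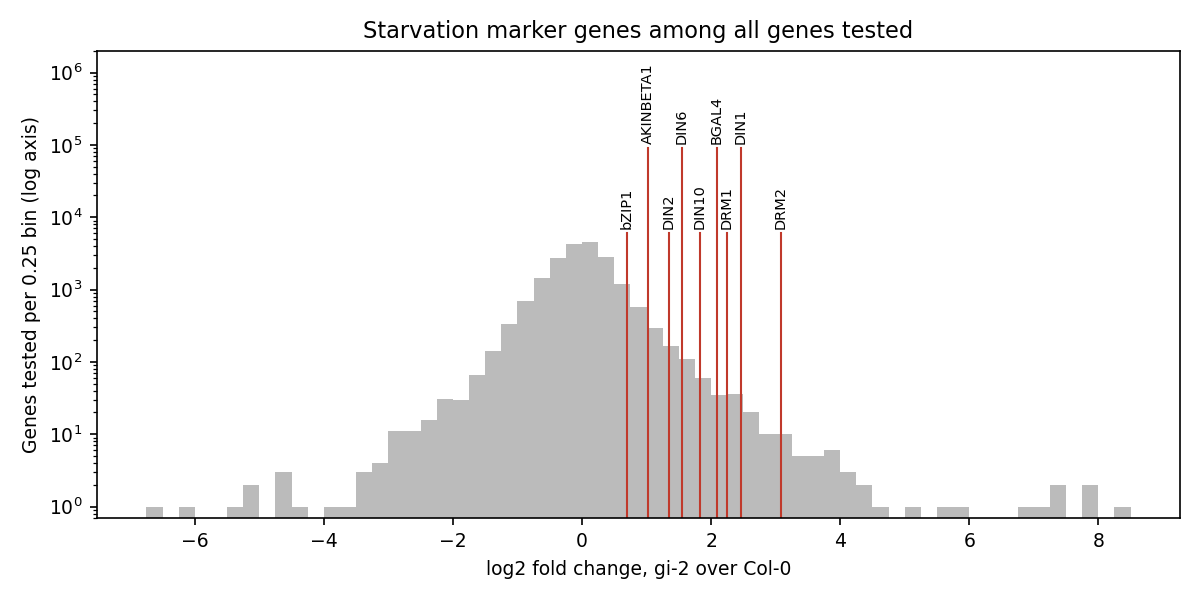
Number of genes tested per 0.25 bin of log2 fold change, gi-2 over Col-0 (log axis), with red lines at the 9 starvation marker genes. The lines run from 0.70 for bZIP1 to 3.08 for DRM2, on the right flank of a distribution centred on 0.00.

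Because the genes rose by different amounts, their order of abundance differed between genotypes. Levels per kb of exon (CPM per kb) in gi-2 were 828 ± 43.0 for DRM2, 624 ± 78.3 for DIN1, 388 ± 29.5 for DIN6 and 326 ± 12.6 for DRM1. They were 259 ± 54.7 for DIN10, 172 ± 8.69 for AKINBETA1, 143 ± 14.6 for BGAL4, 73.8 ± 10.2 for bZIP1 and 24.9 ± 5.95 for DIN2 (SD, n = 3). Neighbours in this order had separate ranges over the gi-2 libraries, except DRM1 and DIN10. In Col-0 the order began with DIN6 at 133 ± 9.13, DIN1 at 114 ± 33.2 and DRM2 at 98.0 ± 18.7 CPM per kb. AKINBETA1 (85.0 ± 8.32), DIN10 (73.2 ± 12.1), DRM1 (68.7 ± 1.86), bZIP1 (45.5 ± 3.22), BGAL4 (33.6 ± 4.87) and DIN2 (9.78 ± 2.48) followed. From DIN6 down to DRM1 each gene's range in Col-0 overlapped that of the next, so neighbours in this stretch did not differ beyond their spread. Further apart, the whole range of DIN6 lay above those of DRM2, AKINBETA1, DIN10 and DRM1, that of DIN1 above those of DIN10 and DRM1, and those of DRM2 and AKINBETA1 above that of DRM1.

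Among 19676 genes tested that had a length, DRM2 ranked 60th by mean level per kb in gi-2 and 882nd in Col-0. DIN1 ranked 82nd in gi-2 and 749th in Col-0, and BGAL4 ranked 557th in gi-2 and 2894th in Col-0. DIN2 remained the least abundant of the 9, at rank 3979 in gi-2 and 8613 in Col-0. Of the counts that fell on the 9 genes, DRM2 held 18.3 ± 1.25% in gi-2 and 8.47 ± 0.932% in Col-0. DIN6 held 21.1 ± 0.636% in gi-2 and 28.4 ± 1.31% in Col-0, although its own level rose. AKINBETA1 held 5.56 ± 0.241% in gi-2 and 10.9 ± 1.41% in Col-0 (SD, n = 3 each).

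Within each genotype the genes tended to vary together from library to library, less so for AKINBETA1 and with DIN2 apart. In gi-2 replicate 1 all 9 genes were above their gi-2 mean on the log2(CPM + 0.5) scale, whereas 1 was above it in gi-2 replicate 2 and 2 in gi-2 replicate 3. In Col-0, 8 genes were above their mean in replicate 3, 3 in replicate 2 and 2 in replicate 1. DIN2 was the exception, at -0.38 in Col-0 replicate 3 and 0.24 in gi-2 replicate 2. Over the 6 deviations from genotype means, the Pearson correlation between pairs of the 8 other genes had a median of 0.70 and ran from -0.04 to 0.99 over 28 pairs, and for the 8 pairs with DIN2 it ran from -0.58 to 0.24. DIN6 and DIN10 had the highest value, 0.99, and DIN1 and BGAL4 reached 0.95. AKINBETA1 was the loosest of the 8, at -0.04 with DRM2, 0.14 with DRM1 and up to 0.55 with BGAL4. DIN2 was set apart after its values were seen. These values rest on 6 libraries that share depth and scaling across genes and are given as a description. Centring on genotype means also ties the 6 deviations to each other, so high correlations arise more easily. Whether genes outside the set vary together as closely was not tested.

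Over all 6 libraries, the genes outside the set whose log2 CPM followed the mean standardised profile of the 9 most closely were AKT1, AT1G53440, AT3G47160, PPDK and AT4G28040, each at a Pearson r of 0.999 over 17114 candidates with a mean log2 CPM of at least 1. The measure is dominated by the difference between genotypes, and 161 candidates had an r over 0.99. PPDK (AT4G15530), pyruvate phosphate dikinase, which helps move carbon and nitrogen out of ageing leaves, stood at 228, 189.9 and 182 CPM in the gi-2 libraries and at 54.6, 63.6 and 65.6 CPM in the Col-0 libraries (log2 fold change 1.71, SE 0.10). AKT1 (AT2G26650), a potassium channel of roots, differed far less, at 77.1 ± 1.62 CPM in the mutant, against 61.0 ± 0.374 CPM in the wild type (log2 fold change 0.34, SE 0.07). The other 3 had log2 fold changes of 0.63, 1.66 and 1.06.

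**Figure D5:**
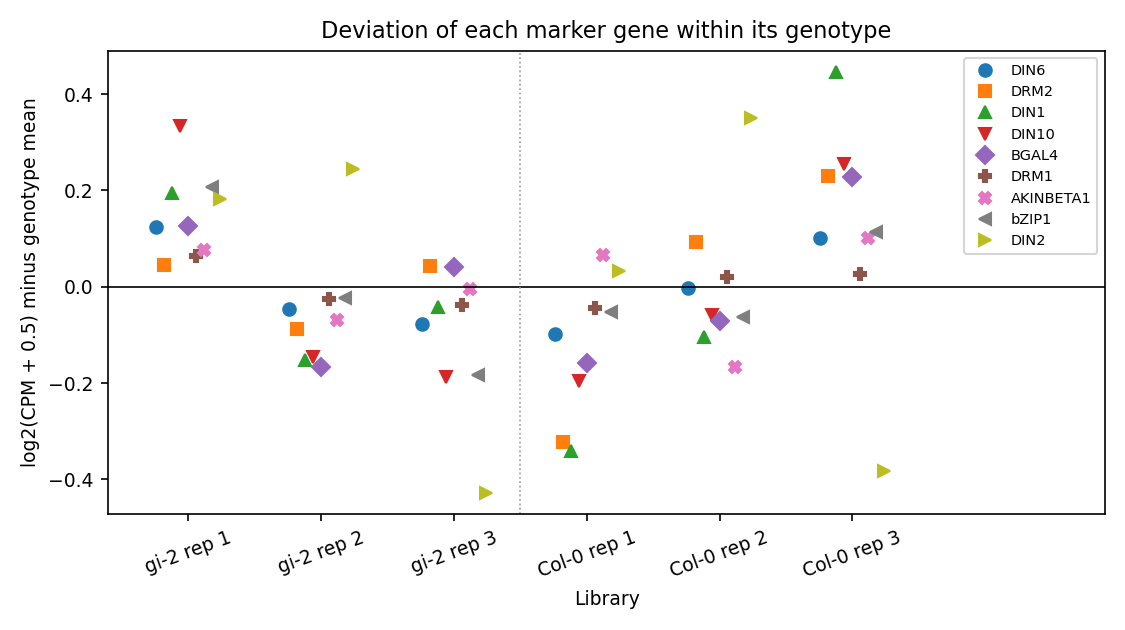
Deviation of each starvation marker gene from its genotype's mean, in log2(CPM + 0.5), for the 3 gi-2 libraries and the 3 Col-0 libraries. All 9 genes lie above 0 in gi-2 replicate 1 and 8 do in Col-0 replicate 3, while DIN2 lies at -0.43 in gi-2 replicate 3 and -0.38 in Col-0 replicate 3.

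Other genes known to rise in darkness or starvation were mostly higher as well. Of 22 such genes listed beside the 9, 20 were tested, and 18 were higher and none lower, where 16.3% of all genes tested were called higher and 16.2% lower. Their median log2 fold change was 0.97, against 0.00 over all genes tested. With 1 library left out, 16 to 18 genes of the list were called higher. The list was chosen with earlier results of these data known, so its counts are a description. MCCA, of leucine breakdown, stood at 406 ± 19.0 CPM in the mutant, against 96.9 ± 11.7 CPM in the wild type (log2 fold change 2.07, SE 0.09). IVD, of the same pathway, rose by 1.75 (SE 0.08) and BCAT2, a branched-chain aminotransferase gene, by 2.15 (SE 0.13). The further DIN genes were mixed: DIN3 and DIN4, subunits of the branched-chain keto acid dehydrogenase, were 2.37-fold and 2.46-fold higher, DIN9, a phosphomannose isomerase gene, did not pass (-0.18, SE 0.19), and DIN11 was too low to test. EXPA10, an expansin gene, was the other gene not called, at 6.40 ± 1.04 CPM in the mutant, against 9.54 ± 2.58 CPM in the wild type (log2 fold change -0.58, SE 0.21), where the edgeR adjusted p lay just above the threshold. It was called lower when Col-0 replicate 1 (edgeR adjusted p of 0.00217) or gi-2 replicate 3 (0.0430) was left out, and the alternatives spanned 0.00217 to 0.182. The DIN genes of this list and EXPA10 were named after their values were seen.

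Genes known to be induced by sugar gave few values, since 5 of 8 were tested. CHS, the first enzyme of flavonoid synthesis, fell by 2.96 (SE 0.21), and NIA2, a nitrate reductase gene, stood at 2326 ± 148 CPM in the mutant, against 4422 ± 540 CPM in the wild type (log2 fold change -0.93, SE 0.10). APL3, of starch synthesis, had a log2 fold change of 0.29 (SE 0.22), NIA1 of -0.12 (SE 0.11) and TPS5 of 0.01 (SE 0.12), and these did not pass. GPT2, BAM5 and PAP1 had too few counts to be tested.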

How the data were processed

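RNA of whole seedlings was sequenced in 6 libraries, 3 of gi-2 and 3 of Col-0, grouped by the genotype label. Per the labels' protocols, total RNA was DNase-treated and made into non-directional libraries. What the authors deposited are raw counts of reads, unscaled. Tools named in the submitters' processing notes are STAR 2.5.5, HTSeq 0.6.1 and DESeq2, with the TAIR10 build. How strand and multi-mapping reads were handled is not given in the sources used here. The table held 32833 genes, 8687 of them without a count, and 0 rows that name no gene.

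Counts were tested with edgeR 4.0.16 (R 4.3.3; TMM scaling, filterByExpr with minimum count 10 and total 15, quasi-likelihood F test, genotype as the only term). P-values were adjusted by Benjamini-Hochberg over 19699 genes and called under 0.05. Each standard error (SE) is the log2 fold change divided by the root of F. The script was tested on simulated counts. Levels per kb use the gene length of the table, which equals the RefSeq exon union for all 9 genes. Besides the overlaps given above for the 9, neighbours share 2 to 557 bases with KIN10, bZIP9, BGAL8, BGAL9, BGAL12, AT1G56220, STR16, AT4G27700, AT2G42220, MCCA, BCAT2, DIN3, DIN4, TPS5, CHS, PAO, WRKY53 and the 5 genes most alike in profile, so those values are uncertain by the reads in these stretches. The same holds for PYK10, LHCB1.3, RCA, OLEO1 and OLEO2, which share 3 to 138 bases with neighbours. A floor of 3 counts corresponds to 0.126 to 0.166 CPM, covering counting error only.

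Replicate pairs differed beyond sampling noise (chi-square per degree of freedom 4.85 to 15.1), so each library counted as 1 sample. The labels call the replicates biological without naming days, and p-values reflect only how these pools vary. Coordinates of genes are those of the table (TAIR10), and 32508 of 32524 nuclear genes had the same position in RefSeq TAIR10.1, from which the 250 bases before each start were read. A table of promoters, which the motif search was planned on, was not used here.

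The 9 genes and all lists were chosen with earlier results of these data known. Named genes were the 9, GI, the 3 called genes of lowest adjusted p in each list, the relatives of the 9 in families of fewer than 10, and the 5 most alike in profile; remaining members of the sugar-induced and leaf senescence lists were named after their values were seen. A further relative of DIN10 is not reported here. Alternatives were RLE and upper-quartile scaling, DESeq2 1.42.0, limma-voom (limma 3.58.1), no low-count filter, a mean CPM of at least 1, the replicate number as a block, leaving out each library, and leaving out gi-2 replicate 2 with Col-0 replicate 1.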

Additional observations from a re-analysis of the deposited data

How the results depend on the processing

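All 9 starvation markers were called higher in each of the 14 alternatives, with log2 fold changes of 0.58 to 0.78 for bZIP1, 1.17 to 1.54 for DIN2, 1.63 to 1.96 for DIN10, 2.29 to 2.71 for DIN1 and 2.93 to 3.19 for DRM2. The highest adjusted p was 0.00159, for bZIP1. The median over the 9 was 1.63 to 1.96 when 1 library was left out, lowest without gi-2 replicate 1 and highest without Col-0 replicate 3. Over the whole table, 2365 to 3310 genes were called higher and 2545 to 3377 lower when 1 library was left out. With 1 library left out, other starvation genes called lower numbered 0 to 1, leaf senescence genes called lower 1 to 2, C and S1 bZIP genes called lower 1 to 2 and other SnRK1 subunits called higher 1 to 2. With gi-2 replicate 2 left out together with Col-0 replicate 1, each of these counts was 1. RLE scaling, upper-quartile scaling, DESeq2, no low-count filter and the replicate block each gave 1 other starvation gene called lower, EXPA10. DESeq2 and no low-count filter each gave 1 leaf senescence gene called lower. There WRKY6 lost its call (DESeq2 adjusted p of 0.0726, edgeR adjusted p of 0.0511 with no filter). Why the alternatives differ was not tested. No result reversed its direction past the threshold in any alternative run. Genes under about 1 CPM, such as RS4, rest on few counts.

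Replicate numbers are shared between genotypes but pair nothing in the labels. Deviations from genotype means correlated at 0.0164, 0.0210 and 0.0263 between same-numbered libraries, all under 0.1. Each library correlated best with its own number, but centring on genotype means ties these values to each other. Pairing was not tested. With the replicate block, 3123 genes were called higher and 3038 lower, against 3214 and 3199 without it, and all 9 starvation markers were called. The block added a call for EXPA10 (edgeR adjusted p = 0.0327) and took that of BGAL12 (0.0562).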

Other observations

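Leaf senescence shares several markers with starvation, and its genes were mixed at dawn. Of 12 genes listed, 10 were tested, and 5 were higher and 2 lower in gi-2, with a median log2 fold change of 0.42, against 0.00 over all genes tested, of which 16.3% were called higher and 16.2% lower. CAT3, a catalase gene with a strong daily rhythm, stood at 4704 ± 124 CPM in the mutant, against 1650.4 ± 30.6 CPM in the wild type (SD, n = 3 each; log2 fold change 1.51, SE 0.08). ORE1, a NAC transcription factor that drives ageing of leaves, stood at 16.0 ± 1.88 CPM in the mutant, against 6.46 ± 0.486 CPM in the wild type and was 2.47-fold higher. SAG13, a short-chain dehydrogenase gene used as an early senescence marker, went the other way, at 0.771 ± 0.238 CPM in the mutant, against 5.08 ± 1.81 CPM in the wild type (log2 fold change -2.71, SE 0.36).

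NAP and PAO were higher by 0.51 (SE 0.13) and 0.39 (SE 0.09) on the log2 scale. SAG101 had a log2 fold change of 0.45 (edgeR adjusted p = 0.0225), a call that ended when gi-2 replicate 2 (0.0775), gi-2 replicate 3 (0.0844), Col-0 replicate 1 (0.0584) or Col-0 replicate 2 (0.0691) was left out; the alternatives spanned 0.0145 to 0.114. WRKY6 had a log2 fold change of -0.30 (edgeR adjusted p = 0.0497), from 0.0365 to 0.199 over the alternatives. Among the 6 fits that leave out 1 library, it was called only in the 1 without gi-2 replicate 1 (0.0365), and the others gave 0.0511 (Col-0 replicate 1), 0.131 (Col-0 replicate 2), 0.0511 (Col-0 replicate 3), 0.102 (gi-2 replicate 2) and 0.199 (gi-2 replicate 3). WRKY53 (0.84, SE 0.34) was called only where Col-0 replicate 3 was left out (edgeR adjusted p of 0.0485), and elsewhere reached up to 0.262. NYE1 (0.10, SE 0.13) and SAG113 (-0.08, SE 0.17) did not pass. SAG12, the marker of late senescence, had no count in any library, and SAG29 was too low to test.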
